A study of Homo sapiens with 8 samples.

Results

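This account covers 10 genes of antioxidant defence that include classical targets of the transcription factor NRF2: NQO1, HMOX1, GCLC, GCLM, TXN, TXNRD1, SOD1, SOD2, PRDX1 and CAT. A gene was included through probe sets annotated with exactly 1 gene symbol, which gave 9 genes with 1 probe set each among 8793 probe sets on the array. SOD2 is not described, because its 1 probe set carries 2 symbols. All 9 measured genes passed the filter on low signals, as did 5552 of 7713 named genes on the array.

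NRF2, encoded by NFE2L2, is held in the cytoplasm and marked for degradation by KEAP1 together with the ubiquitin ligase scaffold CUL3. Oxidants and electrophiles release it, and with a small MAF protein it binds antioxidant response elements in the promoters of detoxifying genes, where BACH1 can compete as a repressor. The genes described here make quinones less reactive (NQO1), degrade heme (HMOX1), start glutathione synthesis (GCLC and GCLM), reduce protein disulfides (TXN and TXNRD1) and remove superoxide (SOD1) or hydrogen peroxide (PRDX1 and CAT).

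Total RNA of 2 human breast cancer cell lines was measured on Affymetrix arrays, in 4 groups of 2 arrays. ZR75-1 cells, ER-positive per the labels, and SKBR3 cells, ER-negative per the labels, received a plasmid carrying HSD17B14, a 17-beta-hydroxysteroid dehydrogenase, or the same vector without the insert. All of these cells, controls included, grew in medium with 4% serum and received plasmid or vector with the reagent FuGene-6, 24 h after they were seeded; RNA was taken 48 h later. Whether duplicates came from separate cultures is not stated in the labels. The p-values therefore cover only how far duplicate arrays differ, which may be technical.

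HSD17B14 signals were 107.5 and 135.3 with the plasmid against 17.8 and 2.1 with vector in ZR75-1, and 650.7 and 743.6 against 2.0 and 4.2 in the other line. The markers of the lines went partly against the labels. ERBB2, amplified in SKBR3 cells, had signals of 25.9 to 46.8 on the arrays labelled SKBR3 and 95.9 to 226 on the ZR75-1 arrays. VIM, a mesenchymal intermediate filament, had 3646 to 5326 on the arrays labelled SKBR3 and at most 25.7 on the others. The cells are therefore called SKBR3-labelled. The 8 tested luminal markers were called higher in ZR75-1 in both plasmid groups. Of 4 tested mesenchymal markers 1 was called higher (COL1A1) and 1 lower (VIM). The leukocyte markers PTPRC and CD14 did not pass the filter, with signals of at most 16.5, and CD3E was called in no comparison.

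The antioxidant response element is the DNA motif through which NRF2 acts, so the promoters of the measured genes were searched for its core, TGACNNNGC, on both strands; no other motif was searched. The promoter table (RefSeq, GRCh38.p14) held 6 of the 9 genes, with 250 bases before and 50 bases after the start site. GCLM and TXNRD1 held a match, 2 of 6 genes, while NQO1, GCLC, TXN and CAT held none of these letters in this window. Of all 27305 genes in the table, 16.1% held a match in at least 1 promoter, and of all 35116 promoters of this length 13.3% did. The matches are shown because they mark where the motif lies in these promoters, with the core in capitals and 10 bases on each side, read along the gene's strand; a core on the opposite strand reads GCNNNGTCA.
GCLM (chr1:93909446-93909474, minus strand, core from position -34, opposite strand): tacgatttctGCTTAGTCAttgtcttcca
TXNRD1, first promoter (chr12:104215670-104215698, plus strand, core from position -99, same strand): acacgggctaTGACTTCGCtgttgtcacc
TXNRD1, first promoter (chr12:104215761-104215789, plus strand, core from position -8, opposite strand): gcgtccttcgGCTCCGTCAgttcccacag
TXNRD1, second promoter (chr12:104286920-104286948, plus strand, core from position -102, opposite strand): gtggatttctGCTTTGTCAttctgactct
Position -1 is the base just before the start site. TXNRD1 has 2 start sites in the table, and both promoters held a match. A match describes the letters only.

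The first question was how these genes differed between cells given the HSD17B14 plasmid and cells given the vector. None of the 9 genes was called in either line, and none reached even an unadjusted p of 0.05 in limma's test. That unadjusted level was reached by 18.0% of all tested probe sets in ZR75-1 and 8.78% in the SKBR3-labelled cells. The fitted log2 changes (plasmid minus vector) ran from -0.38 for HMOX1 to 0.47 for GCLC in ZR75-1, and from -0.26 for SOD1 to 0.77 for GCLC in the SKBR3-labelled cells. Of 6251 tested probe sets, 1.52% were called in ZR75-1 and 0.992% in the SKBR3-labelled cells. The median log2 change of the 9 genes was 0.18 in ZR75-1 and 0.17 in the SKBR3-labelled cells, beside -0.044 and -0.011 over all probe sets. In bulk RNA such as this, fewer cells of a kind and less RNA per cell cannot be told apart.

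NQO1, the quinone reductase, had signals of 943.7 and 910.6 with the plasmid and 754.8 and 712.3 with vector in ZR75-1. The plasmid arrays lay above the controls, by 0.34 ± 0.17 on the log2 scale (limma SE, n = 2 arrays per group), but the gene did not pass (adjusted p = 0.313). NQO1 in the SKBR3-labelled cells had 400.9 and 513.0 with the plasmid and 447.2 and 577.4 with vector, and the groups overlapped.

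HMOX1, the heme oxygenase whose products are biliverdin, iron and carbon monoxide, stood on opposite sides in the lines. In ZR75-1 its signals were 94.8 and 121.2 with the plasmid, below the 148.2 and 131.5 of the vector. The SKBR3-labelled cells had 33.0 and 54.4, above the 26.0 and 32 of the vector. The log2 changes were -0.38 ± 0.30 and 0.55 ± 0.30, and neither passed (adjusted p = 0.55 and 0.68). The difference between these effects, ZR75-1 minus SKBR3-labelled, was -0.94 ± 0.43 and did not pass either (adjusted p = 0.386).

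GCLC and GCLM, the catalytic and modifier subunits of glutamate-cysteine ligase in that order, were not called in either line. GCLC had 41.9 and 43.5 with the plasmid and 53.8 and 17.6 with vector in ZR75-1. Its 2 ZR75-1 controls differed 3.06-fold, the widest gap between duplicates of any of these genes. GCLC in the SKBR3-labelled cells had 52.4 and 40.8 with the plasmid, above the 28.3 and 26.0 of the vector (log2 0.77 ± 0.49, 95% interval -0.31 to 1.85, adjusted p = 0.76). Without ZR75-1 control 2 the GCLC change in ZR75-1 turned from 0.47 to -0.33. GCLM had 88.6 and 72.7 with the plasmid against 70.6 and 71.1 in ZR75-1, where the plasmid arrays lay above the controls. Its SKBR3-labelled signals of 78.5 and 99.1 overlapped those of the vector, 67.2 and 80.6. The log2 changes of GCLM were 0.18 ± 0.24 and 0.26 ± 0.24.

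The thioredoxin pair did not pass either. TXN, thioredoxin itself, had 929.1 and 1165.5 with the plasmid and 643.2 and 938.0 with vector in ZR75-1, overlapping groups with a log2 change of 0.42 ± 0.20 (adjusted p = 0.289). The groups overlapped in the SKBR3-labelled cells too, where TXN had 1516.4 and 1727.4 against 1592.7 and 1966.5. TXNRD1, the selenoprotein that reduces thioredoxin and one of the genes whose promoter matches are printed above, had 707.0 and 563.8 against 788.7 and 613.1 in ZR75-1, which overlap. Its SKBR3-labelled plasmid arrays, 662.8 and 621.2, lay above the controls at 521.3 and 549.5 (log2 0.26 ± 0.16, adjusted p = 0.748).

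Of the enzymes that remove superoxide and peroxide, PRDX1, a peroxiredoxin, had 2900.7 and 2585.4 with the plasmid, above the 1950.5 and 2379.4 of the vector in ZR75-1. Its log2 change there was 0.35 ± 0.18 (adjusted p = 0.345). PRDX1 overlapped in the SKBR3-labelled cells, with 2136.1 and 1984.9 against 1557.3 and 2151.7. SOD1, the copper-zinc superoxide dismutase, overlapped in ZR75-1, at 1842.8 and 1843.3 against 1587.4 and 1907.1. SKBR3-labelled cells had SOD1 signals of 1459.8 and 1332.3 with the plasmid, below the 1666.4 and 1670.0 of the vector (log2 -0.26 ± 0.14, adjusted p = 0.688). CAT, catalase, had 100.1 and 111.2 against 144.6 and 102.5 in ZR75-1, where the groups overlapped. Catalase signals in the SKBR3-labelled cells were 298.9 and 262.1 with the plasmid, below the 336.3 and 319.3 of the vector (log2 -0.23 ± 0.19, adjusted p = 0.874).

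Plasmid and vector arrays did not overlap for 4 of 9 genes in ZR75-1 and 5 of 9 in the SKBR3-labelled cells, beside 47% and 40.1% of all tested probe sets. With the effect averaged over the lines, 0 of 9 passed (0 at an unadjusted p of 0.05), where 1.5% of all probe sets were called (14.2% at an unadjusted p of 0.05). The smallest p-values of that average belonged to PRDX1 at 0.26 ± 0.13, GCLC at 0.62 ± 0.35 and CAT at -0.22 ± 0.14 (adjusted p = 0.392, 0.453 and 0.51). The difference of the effects between lines also gave 0 calls and 0 at an unadjusted p of 0.05, beside 0.624% and 13.0% of all probe sets. After HMOX1, its smallest p-values were those of NQO1 at 0.50 ± 0.23 and TXN at 0.55 ± 0.28 (adjusted p = 0.396 and 0.436). The ratio of the 3' to the 5' probe set of actin, a measure of RNA integrity, stood at 2.83 and 2.66 on the ZR75-1 plasmid arrays and 2.03 and 2.02 on their controls. The same ratio of GAPDH went the other way, at 0.90 and 0.88 on the plasmid arrays and 1.08 and 1.04 on their controls. The part of either ratio in these values was not tested.

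**Figure D1:**
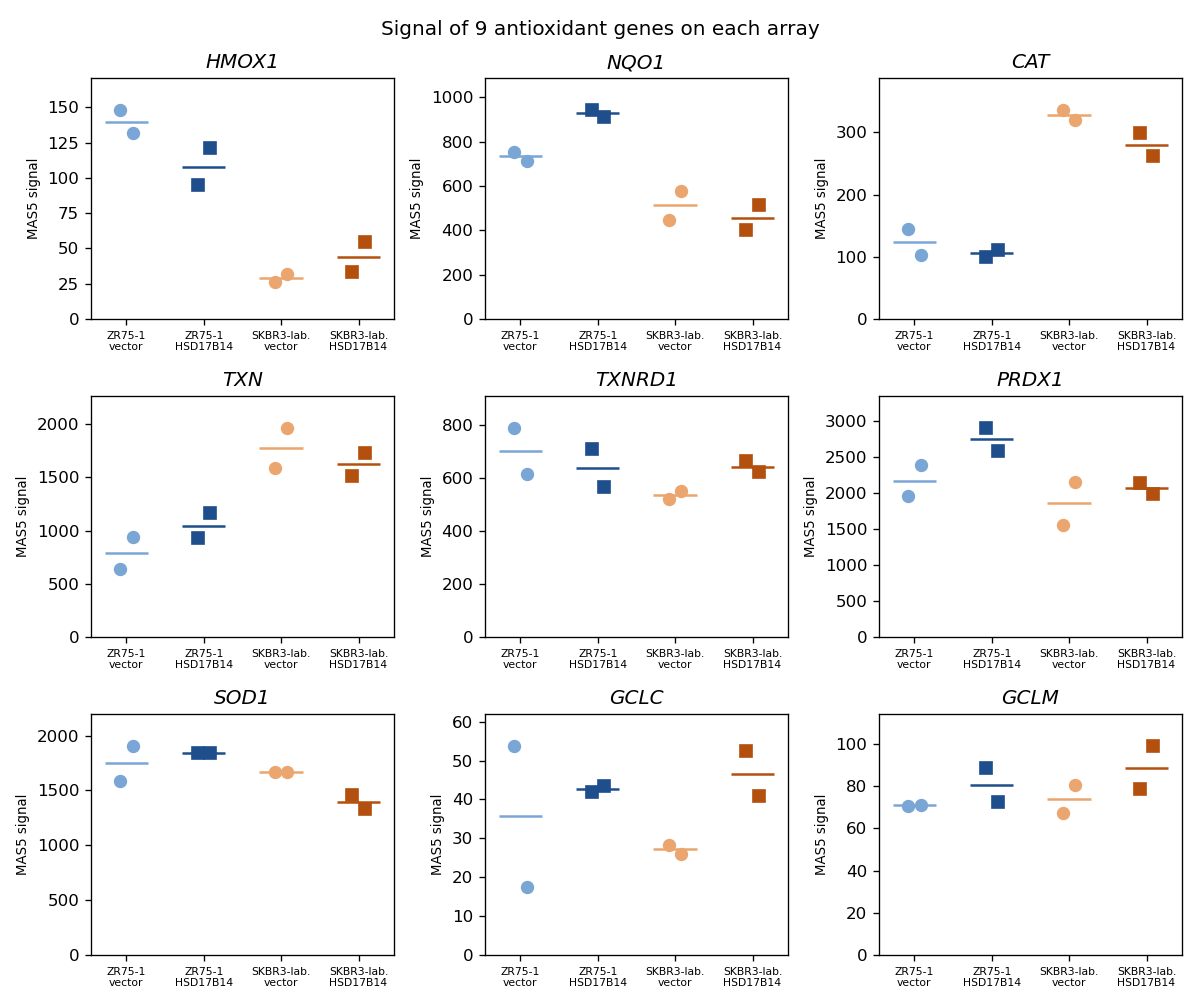
Deposited MAS5 signal (linear axis from 0) of 9 antioxidant genes on each of 8 arrays, with 1 panel per gene, circles for vector and squares for HSD17B14, and a line at the mean of the 2 arrays. HMOX1 and NQO1 sit higher on all ZR75-1 arrays, and CAT and TXN sit higher on all SKBR3-labelled arrays (lab. stands for labelled).

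**Figure D2:**
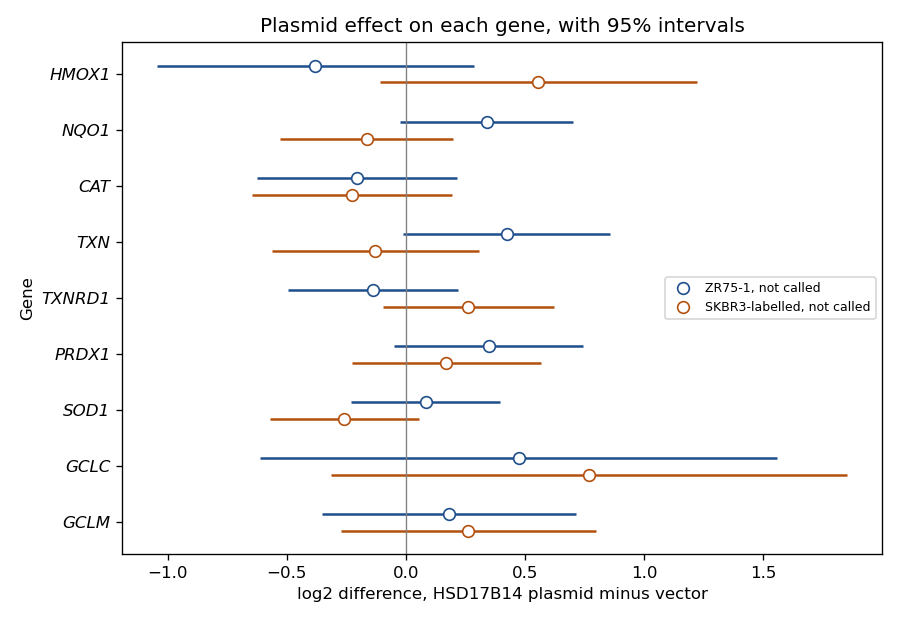
Fitted log2 difference, HSD17B14 plasmid minus vector, of each gene in ZR75-1 (blue) and in the SKBR3-labelled cells (orange), with limma's 95% intervals and open circles for genes not called. All 18 intervals include 0, and those of GCLC are the widest, reaching 1.56 in ZR75-1 and 1.85 in the SKBR3-labelled cells.

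The intervals give the range of changes the 2 arrays per group leave possible. For SOD1 the 95% interval was -0.23 to 0.40 in ZR75-1 and -0.57 to 0.055 in the SKBR3-labelled cells, and for NQO1 it was -0.025 to 0.70 and -0.53 to 0.20. For HMOX1 it was -1.05 to 0.28 and -0.11 to 1.22. Missing the threshold does not show that a gene was unaffected.

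The second question was how the 2 lines differ in these genes, asked once in the vector controls and once with the HSD17B14 plasmid, on separate arrays. HMOX1 and NQO1 were higher in ZR75-1, and CAT and TXN were lower, in both comparisons. In the vector controls 2 of 9 genes were called higher and 2 lower, where 40.2% of all tested probe sets were called (19.6% higher and 20.7% lower). With HSD17B14 3 were called higher and 2 lower, where 33.2% were called (15.1% higher and 18.1% lower). The same 4 genes were called in both with the same direction, and SOD1 was the further one with HSD17B14. Over all tested probe sets 1645 of 6251 (26.3%) were called in both with the same direction, which is 65.4% of the calls in the controls and 79.3% of those with HSD17B14. Without SKBR3-labelled HSD17B14 array 1 that count of 5 was 2, and without array 2, or without either ZR75-1 HSD17B14 array, it was 3.

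HMOX1 had the largest difference of the 9 genes in the vector controls. From the signals given above, the ZR75-1 controls at 148.2 and 131.5 were 4.84-fold above the SKBR3-labelled controls at 26.0 and 32 (log2 2.27 ± 0.30, adjusted p = 1.07e-04). With HSD17B14 the gap was 2.53-fold (1.34 ± 0.30, adjusted p = 0.00505). That second call was lost without ZR75-1 HSD17B14 array 2 (adjusted p = 0.0517) and without SKBR3-labelled HSD17B14 array 1 (adjusted p = 0.0712).

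NQO1 was 1.44-fold higher in the ZR75-1 controls (log2 0.53 ± 0.17, adjusted p = 0.0242) and 2.04-fold higher with HSD17B14 (1.03 ± 0.17, adjusted p = 5.22e-04). All 4 ZR75-1 arrays, from 712.3 to 943.7, lay above all 4 SKBR3-labelled arrays, from 400.9 to 577.4. The call in the controls was lost without either ZR75-1 control or SKBR3-labelled control 1 (adjusted p = 0.0944, 0.0547 and 0.17), with median centring, with a prior that ignores the mean and with values raised to the common floor (adjusted p = 0.165, 0.123 and 0.0525). With HSD17B14 NQO1 passed in all 17 alternatives.

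CAT was lower in ZR75-1 by nearly the same amount in both comparisons, 2.69-fold in the controls (log2 -1.43 ± 0.19, adjusted p = 1.11e-04) and 2.65-fold with HSD17B14 (-1.41 ± 0.19, adjusted p = 1.55e-04). Its 4 ZR75-1 signals, 100.1 to 144.6, lay below the 4 SKBR3-labelled signals, 262.1 to 336.3. TXN was 2.28-fold lower in the ZR75-1 controls (-1.19 ± 0.20, adjusted p = 5.43e-04) and 1.56-fold lower with HSD17B14 (-0.64 ± 0.20, adjusted p = 0.0273). The call of TXN with HSD17B14 was lost without ZR75-1 HSD17B14 array 1 or either SKBR3-labelled HSD17B14 array (adjusted p = 0.199, 0.0639 and 0.171), and with median centring, a prior that ignores the mean or values raised to the common floor (adjusted p = 0.11, 0.142 and 0.0869). The probe sets of NQO1 and TXN are of a kind that can bind several related transcripts.

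SOD1 passed narrowly with HSD17B14, at 0.40 ± 0.14 (adjusted p = 0.0494), and not in the controls, at 0.061 ± 0.14 (adjusted p = 0.767). Its call was lost in 11 of 17 alternatives, among them leaving out any 1 of the 4 HSD17B14 arrays or of the 2 SKBR3-labelled controls (adjusted p from 0.0594 to 0.294). PRDX1 differed by 0.23 ± 0.18 in the controls and 0.41 ± 0.18 with HSD17B14 and did not pass (adjusted p = 0.335 and 0.106). TXNRD1 was higher on both ZR75-1 controls (0.38 ± 0.16, adjusted p = 0.0879), passed without ZR75-1 control 2 (0.56, adjusted p = 0.0314), and overlapped with HSD17B14 (-0.023 ± 0.16). GCLC and GCLM overlapped between lines in both comparisons, with log2 differences between -0.14 and 0.18. That of GCLC in the controls turned to -0.62 without ZR75-1 control 1.

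**Figure D3:**
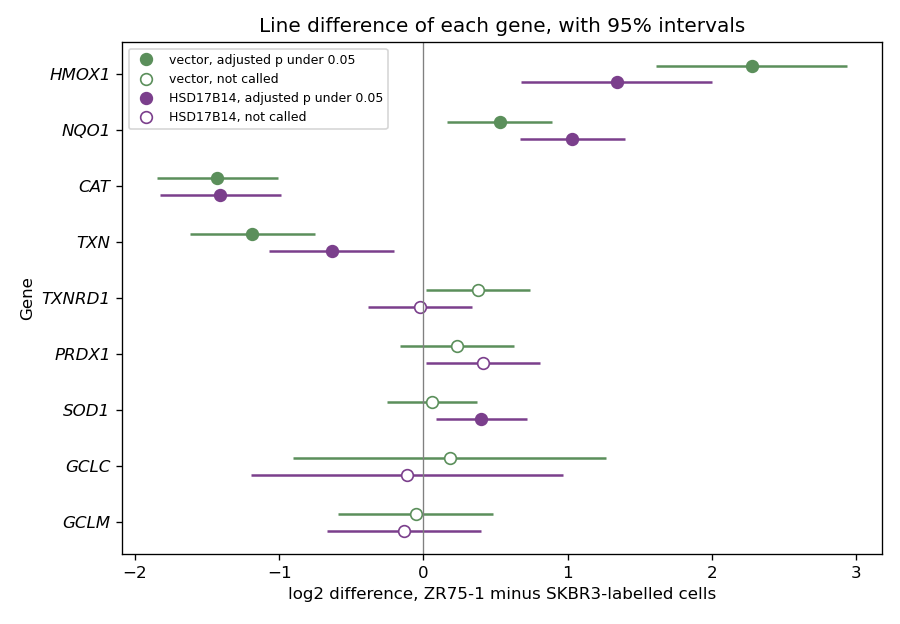
Fitted log2 difference, ZR75-1 minus SKBR3-labelled cells, of each gene in the vector controls (green) and with HSD17B14 (purple), with limma's 95% intervals; filled circles have an adjusted p under 0.05. HMOX1 and NQO1 lie to the right of 0 and CAT and TXN to the left in both comparisons, and SOD1 is filled with HSD17B14 only, a change of 0.34 ± 0.20 between comparisons that did not pass (adjusted p = 0.506).

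The change of a line difference with the plasmid is the difference of effects given above, for which 0 of 9 genes passed. The groups did not overlap for 5 of 9 genes in the controls and 6 of 9 with HSD17B14, beside 66.2% and 70.7% of all tested probe sets. The median absolute log2 difference of the 9 genes was 0.38 in the controls and 0.41 with HSD17B14, beside 0.83 and 0.71 over all probe sets. The actin ratio of the controls was lower in ZR75-1, at 2.03 and 2.02, than in the SKBR3-labelled cells, at 3.60 and 3.0. The GAPDH ratio of the controls was higher in ZR75-1, at 1.08 and 1.04 against 0.91 and 0.87. With HSD17B14 the actin ratio overlapped, at 2.83 and 2.66 against 2.28 and 3.09, and so did that of GAPDH, at 0.896 and 0.883 against 0.812 and 0.886. The part of either ratio in the line differences was not tested. Bacillus spike-in controls were high on 3 arrays. With HSD17B14, where each line has 1 array of each level, the difference of HMOX1 was 1.16 within the high and 1.52 within the low arrays, that of NQO1 0.83 and 1.24, that of CAT -1.24 and -1.58, and that of TXN -0.57 and -0.71.

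HMOX1 and CAT had the largest line differences averaged over both plasmid groups. Across the 8 arrays, HMOX1 was most like SLC5A6, VAPB and KIF5C (Pearson's r of log2 signal 0.987, 0.987 and 0.984 among 5632 named probe sets). CAT was most like CALD1, ADPRM and SLC20A1 (r = 0.996, 0.995 and 0.995). These values describe the arrays, which fall into 2 lines.

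The regulators of NRF2 were examined beside their targets. Of 9 such genes 8 were tested. In the controls NFE2L1, a relative of NRF2, was higher in ZR75-1 and MAFF, BACH1 and NFE2L2 were lower, 1 and 3 of 8. Of all tested probe sets, 40.2% were called in the controls and 33.2% with HSD17B14. The list median in the controls was 0.012 beside -0.036 over all probe sets. With HSD17B14 CUL3 was higher and MAFF, BACH1 and KEAP1 were lower (list median -0.25, beside -0.059 over all probe sets), a count of 4 that was 2 without SKBR3-labelled HSD17B14 array 1, where CUL3 and KEAP1 did not pass (adjusted p = 0.0704 and 0.155). KEAP1 did not pass without ZR75-1 HSD17B14 array 2 either (0.0702), nor NFE2L1 in the controls without SKBR3-labelled control 1 (0.0503). MAFF and BACH1 were the 2 genes called in both, 2 of 8 beside 26.3% of all tested probe sets.

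BACH1, the heme-sensing repressor of HMOX1, had signals of 19.3 and 22.4 on the ZR75-1 controls and 66.6 and 68.6 on the SKBR3-labelled controls. Its log2 difference was -1.70 ± 0.36 there (adjusted p = 0.0027) and -2.09 ± 0.36 with HSD17B14 (adjusted p = 8.41e-04), while HMOX1 was higher in ZR75-1 in both. A link between BACH1 and HMOX1 was not tested. The ZR75-1 signals of BACH1, from 15.4 to 22.4, lay near the common floor of 17.6. Among the alternatives its difference was as small as -0.91 in the controls and -1.13 with HSD17B14. MAFF, a small MAF protein, had 64.3 and 45.4 against 527.1 and 636.4 in the controls (-3.42 ± 0.19, adjusted p = 1.74e-07). NFE2L2 had 110.6 and 104.6 against 168.4 and 190.8 in the controls (-0.74 ± 0.17, adjusted p = 0.00494), and its difference with HSD17B14, 140.8 and 151.7 against 160.7 and 173.5, did not pass.

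With the plasmid 1 of the 8 regulators was called, where 1.52% of all tested probe sets were called in ZR75-1 and 0.992% in the SKBR3-labelled cells. At an unadjusted limma p of 0.05 there were 4 of 8 in ZR75-1, beside 18.0% of all tested probe sets. The averaged effect had 0 of 8 called and 2 at that level, beside 14.2% of all. The difference of effects had 0 called and 3 at that level, beside 13.0% of all. MAFF rose in ZR75-1 to 101.2 and 109.0 (log2 0.96 ± 0.19, adjusted p = 0.0363), and 0 of 8 passed in the SKBR3-labelled cells (1 at an unadjusted p of 0.05, beside 8.78% of all tested probe sets). MAFF did not pass in 11 of 18 alternatives, among them leaving out either HSD17B14 array of ZR75-1 (adjusted p = 0.135 and 0.122), ZR75-1 control 2 (0.0993) or either HSD17B14 array of the SKBR3-labelled cells (0.0915 and 0.0914).

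Of 30 further NRF2 target genes, 23 had a probe set and 22 were tested. In the controls 7 were higher and 4 lower in ZR75-1 and 11 did not pass, where 40.2% of all tested probe sets were called. With HSD17B14 7 were higher and 5 lower, where 33.2% were called. All 11 genes of the first comparison were called in the second with the same direction, 11 of 22 tested genes beside the 26.3% of all probe sets. The median log2 difference was 0.50 and 0.27, beside -0.036 and -0.059 over all probe sets. Higher in the ZR75-1 controls were BLVRB, a biliverdin reductase (3.48 ± 0.13), and EPHX1, the microsomal epoxide hydrolase (4.83 ± 0.24), with adjusted p of 1.12e-08 and 6.19e-08. So were TKT of the pentose phosphate pathway (1.86 ± 0.15) and IDH1, a source of NADPH (1.31 ± 0.17), with adjusted p of 1.98e-06 and 8.41e-05. BLVRB had 1805.6 and 1989.3 on the ZR75-1 controls and 175.5 and 164.2 on the SKBR3-labelled ones. BLVRA, the other biliverdin reductase of the list, overlapped in the controls, at 50.2 and 102.9 against 76 and 94.4. With HSD17B14 its ZR75-1 signals, 122 and 120.5, lay above the SKBR3-labelled ones, 94.8 and 95.2. PIR was at least 9.77-fold higher in the ZR75-1 controls, its SKBR3-labelled signals of 8.6 and 17.1 being under the common floor of 17.6 (adjusted p = 1.31e-05). CBR1, a carbonyl reductase, was at least 5.51-fold lower, with 0.9 and 1.3 on the ZR75-1 controls and 77.6 and 121.2 on the others (adjusted p = 4.50e-05).

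Of 37 further genes of glutathione and peroxide metabolism, 32 had a probe set and 31 were tested. In the controls 7 were higher and 13 lower in ZR75-1 (median log2 difference -0.47), and with HSD17B14 6 were higher and 13 lower (median -0.46). The shares called over all tested probe sets were 40.2% in the controls and 33.2% with HSD17B14. Of the 31 genes 16 were called in both with the same direction, 5 higher and 11 lower, where over all 6251 probe sets 780 were higher and 865 lower in both. GPX1, a glutathione peroxidase that removes hydrogen peroxide as catalase does, had 36.3 and 33.6 on the ZR75-1 controls against 460.2 and 490.5 (-3.77 ± 0.17, adjusted p = 3.50e-08). GPX3, the secreted peroxidase, was lower too (-3.49 ± 0.24), as were TXNIP, which binds thioredoxin (-1.92 ± 0.14), GSTO1, a glutathione transferase (-1.52 ± 0.14), and GLRX, glutaredoxin (-3.08 ± 0.34). GPX4, which reduces lipid peroxides, went the other way, with 1424.9 and 1993.8 against 651.0 and 484.1 (1.59 ± 0.19, adjusted p = 5.50e-05). With HSD17B14 the differences of GPX1, TXNIP and GPX4 were -3.39 ± 0.17, -1.75 ± 0.14 and 1.63 ± 0.19, and GSTM3, another glutathione transferase, was lower (-2.34 ± 0.27, adjusted p = 4.40e-05).

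**Figure D4:**
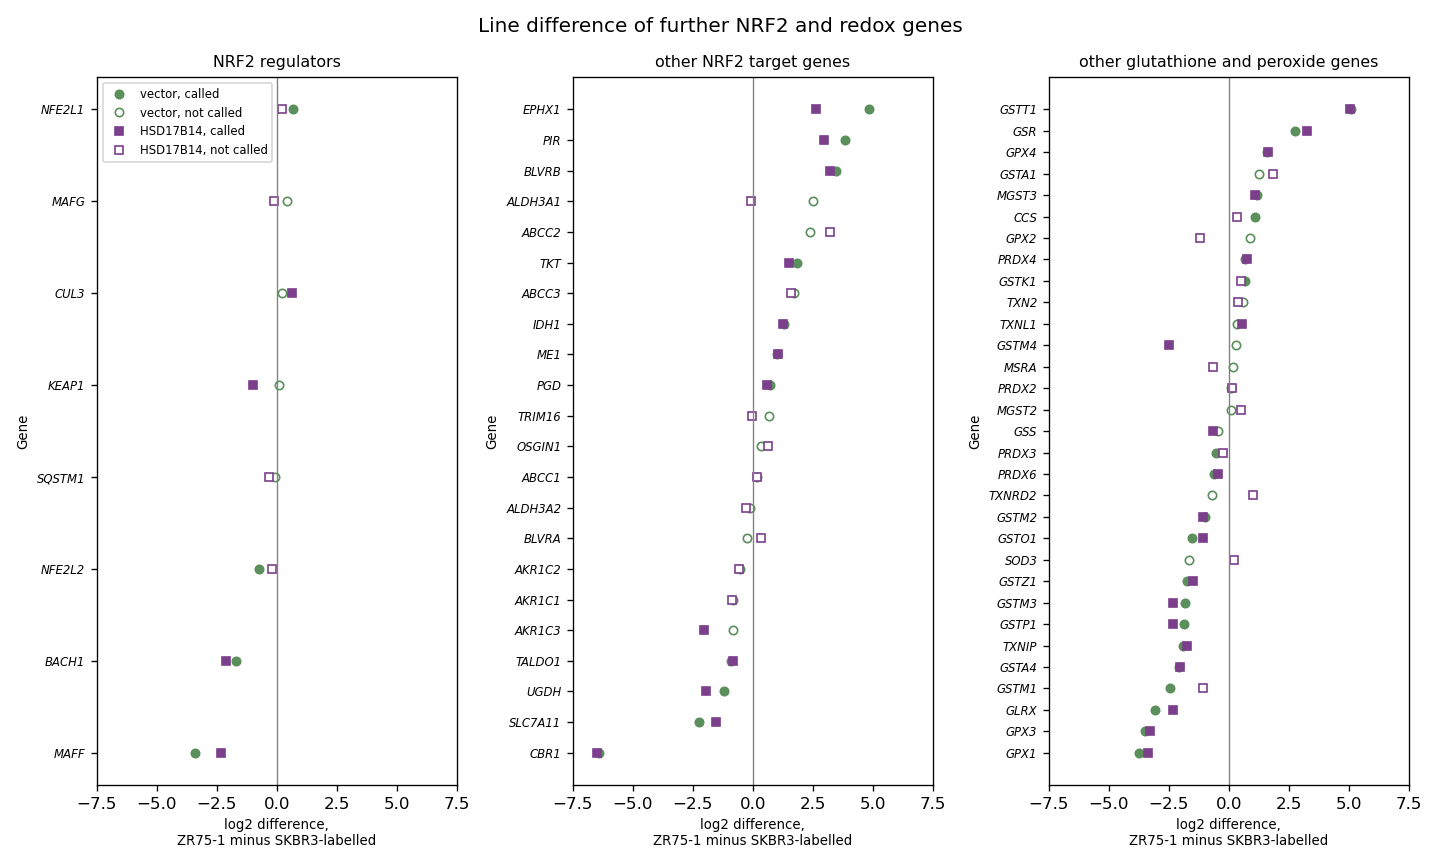
Fitted log2 difference, ZR75-1 minus SKBR3-labelled cells, of 8 NRF2 regulators, 22 further NRF2 target genes and 31 further glutathione and peroxide genes in the vector controls (circles) and with HSD17B14 (squares); filled symbols have an adjusted p under 0.05. Called target genes run from CBR1 at -6.41 to EPHX1 at 4.83 in the controls, and positions of genes under the common floor, CBR1 among them, depend on the low values.

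Between plasmid and vector, 1 gene of each of these 2 lists was called in ZR75-1, where 1.52% of all tested probe sets were called. At an unadjusted limma p of 0.05 there were 2 of 22 target genes and 7 of 31 in the glutathione list, beside 18.0% of all. In ZR75-1 EPHX1 fell, 1 of 22 target genes, from 605.0 and 613.3 to 218.7 and 158.5 (log2 -1.71 ± 0.24, adjusted p = 0.0109). That call was lost without ZR75-1 HSD17B14 array 2 (adjusted p = 0.0524) and without ZR75-1 control 2 (0.0517), and with median centring (0.0582) or a prior that ignores the mean (0.0947). GLRX rose, 1 of 31, from 29.4 and 47.7 to 117.9 and 110.4 (log2 1.61 ± 0.34, adjusted p = 0.0449). In the SKBR3-labelled cells 0 of 22 and 0 of 31 passed limma (2 and 1 at an unadjusted p of 0.05). Of all tested probe sets 0.992% passed in those cells, and 8.78% had an unadjusted p under 0.05. The largest moderated t there belonged to SLC7A11, the cystine transporter, at -0.89 ± 0.33 and TRIM16 at 0.74 ± 0.30 among the target genes, and to GLRX at 0.85 ± 0.34 and GSR, glutathione reductase, at -0.90 ± 0.44 in the glutathione list (adjusted p = 0.44, 0.508, 0.494 and 0.598). Over both lines together GLRX rose by 1.23 ± 0.24 (limma, adjusted p = 0.0265). It was the 1 call of 31 in the glutathione list (3 at an unadjusted p of 0.05), and 0 of 22 target genes passed (4 at an unadjusted p of 0.05). For that average 1.5% of all tested probe sets passed, and 14.2% had an unadjusted p under 0.05. GLRX did not pass in ZR75-1 in 12 of 18 alternatives, including leaving out any 1 of the 4 arrays of that line (adjusted p from 0.053 to 0.18) or either SKBR3-labelled HSD17B14 array (0.0717 and 0.0739). Its average over the lines did not pass in 7 of 17, including leaving out either ZR75-1 HSD17B14 array, ZR75-1 control 1, SKBR3-labelled HSD17B14 array 2 or SKBR3-labelled control 1 (adjusted p from 0.0772 to 0.121).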

How the data were processed

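The deposited intensity values are linear signals from the authors; the submitters' processing notes name MAS5 as their source. Trimming 2% at each end leaves each array a mean of 100.1. Of 8793 probe sets 47 controls were left out. Signals under 1 were raised to 1 and log2 was taken. A probe set was tested if above its array's 40th percentile on at least 2 arrays (6251 probe sets), a limit of 12.1 to 17.6; the highest of these, 17.6, is the common floor against which "at least" folds are given. limma 3.58.1 in R 4.3.3 fitted 4 group means over all 8 arrays (4 residual and 7.39 prior degrees of freedom, prior tied to mean signal), was tested on simulated data, and a call needs a Benjamini-Hochberg adjusted p under 0.05 over all tested probe sets. Errors after ± are limma's standard errors. No detection calls were used; the number of arrays limits precision. Gene symbols are those of the platform annotation.

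Every measured member is described. For each further list, up to 6 called genes per contrast were picked by adjusted p or, with none, up to 2 with the largest moderated t. Not all of these are named, and some named values lie outside this rule, NFKBIA with HSD17B14 among them. A gene with several probe sets is represented by the one with the highest mean. The genes, lists and tests were chosen with earlier results of these data known. The alternatives changed the scaling (quantile normalization or median centring), the filter (none, or the 60th percentile), the low values (an offset of 32 added before log2, or the common floor as minimum), the prior (not tied to mean signal), the blocks (replicate number, or high against low Bacillus spike-in signal) and the arrays (each line by itself, or 1 array left out). The plots come from matplotlib 3.10.9 under Python 3.11.15.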

Additional observations from a re-analysis of the deposited data

Results flagged for a closer look

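EPHX1 was the 1 gene of those described whose plasmid effect differed between the lines by the test of the difference itself. In ZR75-1 it fell by 1.71 ± 0.24 on the log2 scale (limma, adjusted p = 0.0109), and in the SKBR3-labelled cells the plasmid arrays read 32.8 and 27.5 and the controls 19.2 and 24. The difference of effects was -2.19 ± 0.34 (limma, adjusted p = 0.0167). It did not pass with quantile normalization (adjusted p = 0.053), median centring (0.154), values raised to the common floor (0.0699) or a prior not tied to mean signal (0.162), nor without ZR75-1 HSD17B14 array 2 (0.079), ZR75-1 control 1 (0.0571), ZR75-1 control 2 (0.0586) or SKBR3-labelled HSD17B14 array 1 (0.102). Groups of 2 arrays are too small for a search for outlying arrays.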

How the results depend on the processing

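The count of 0 antioxidant genes called for the plasmid held in all 18 alternatives for each line and all 17 for the averaged effect and the difference. In the line difference of the vector controls the count of 4 stayed between 3 and 4. With HSD17B14 the count of 5 was 3 with median centring and 3 with a prior not tied to mean signal, and ran from 2 to 5 when single arrays were left out. With median centring TXNRD1 turned to 0.065 for the plasmid in ZR75-1 and to 0.013 for the line difference with HSD17B14, and SOD1 to -0.032 for the line difference in controls; with quantile normalization GCLC turned to 0.00693 and GCLM to 0.045 for the line difference with HSD17B14. The cause was not tested. None of the values that turned had passed the threshold. Others turned when single arrays were left out. In ZR75-1 the plasmid effects then ran from -0.33 to 1.28 (GCLC), -0.32 to 0.042 (TXNRD1), -0.049 to 0.22 (SOD1) and -0.45 to 0.042 (CAT). In the SKBR3-labelled cells they ran from -0.35 to 0.020 (NQO1), -0.28 to 0.023 (TXN) and -0.063 to 0.40 (PRDX1). The line differences ran from -0.62 to 0.99 (GCLC), -0.19 to 0.076 (GCLM) and -0.072 to 0.19 (SOD1) in the controls, and from -0.30 to 0.065 (GCLC), -0.30 to 0.032 (GCLM) and -0.19 to 0.14 (TXNRD1) with HSD17B14. Median centring moved the median of all probe sets from -0.044 to 0.16 for the plasmid in ZR75-1, from -0.022 to 0.12 for the average and from -0.048 to 0.082 for the difference of effects. Over all probe sets it turned 46 higher and 49 lower calls into 18 and 5 in ZR75-1, and 76 and 18 into 73 and 3 for the average.

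Deviations of arrays with the same replicate number correlated at -0.044 to 0.059. Such values give no sign that the numbers pair the arrays, but cannot exclude it. The 3 arrays with high Bacillus spike-in signal all carry replicate number 2. With the replicate block 0 genes were called for the plasmid in each line, 4 for the line difference in the controls and 4 with HSD17B14, where SOD1 did not pass (limma, adjusted p = 0.0585). With 2 arrays per group, small changes of dim genes such as GCLC cannot be told from the spread.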

Other observations

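Of 14 NF-kB target genes, 12 were tested. With the plasmid, IL6 rose in ZR75-1 from 12.6 and 19.2 to 48.1 and 61.8 (log2 1.81 ± 0.32, limma, adjusted p = 0.0273). These controls lay near the common floor of 17.6, and among the alternatives the change was as small as 0.86. The call was lost with a prior not tied to mean signal, the spike-in block and each line by itself (limma, adjusted p = 0.108, 0.0847 and 0.0946). IL6 also rose over both lines together (1.60 ± 0.22, limma, adjusted p = 0.00279). CXCL2 passed in ZR75-1 too (limma, adjusted p = 0.0296), but all its signals there were under the common floor, and with values raised to that floor its change was 0. Its average over the lines was 2.51 ± 0.40 (limma, adjusted p = 0.00616). That average includes the ZR75-1 change, and with values raised to the common floor it was 0.95 and did not pass (limma, adjusted p = 0.0543). Nor did it pass with a prior not tied to mean signal (limma, adjusted p = 0.0596). The 1 gene called in the SKBR3-labelled cells was NFKBIA, which holds NF-kB inactive, at 475.8 and 540.4 against 315.5 and 274.9 (0.78 ± 0.16, limma, adjusted p = 0.0458). In those cells 6 of the 12 had an unadjusted limma p under 0.05, beside 8.78% of all tested probe sets. Apart from the average of IL6, these calls depend on single arrays. That average ran from 1.45 to 1.75 when single arrays were left out. It did not pass with a prior not tied to mean signal (limma, adjusted p = 0.0666). In ZR75-1 neither IL6 nor CXCL2 passed when any 1 of the 4 HSD17B14 arrays of the 2 lines was left out, nor did IL6 without ZR75-1 control 1 (adjusted p from 0.055 to 0.113). NFKBIA did not pass when any 1 of the 4 SKBR3-labelled arrays or 2 ZR75-1 controls was left out (0.063 to 0.527). The average of CXCL2 did not pass without either SKBR3-labelled HSD17B14 array (0.122 and 0.0925). For the difference of effects 0 of 12 passed limma (5 at an unadjusted p of 0.05), beside 0.624% of all tested probe sets (13.0% at an unadjusted p of 0.05).

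In the vector controls 2 of the 12 were higher and 3 lower in ZR75-1, and with HSD17B14 1 was higher and 7 lower, a count of 8 that was 5 without ZR75-1 HSD17B14 array 2 and 4 without either SKBR3-labelled HSD17B14 array. Of all tested probe sets, 40.2% were called in the controls and 33.2% with HSD17B14. NFKBIA was higher in the controls (1.65 ± 0.16, limma, adjusted p = 9.84e-06) and was the 1 higher with HSD17B14, where it was named after its value was seen (0.54 ± 0.16, limma, adjusted p = 0.022). TNFAIP3, which ends NF-kB signalling, was lower in both (-2.28 ± 0.24 and -2.42 ± 0.24), with signals of 28.2 to 35.4 on the ZR75-1 arrays and 151.3 to 173.4 on the SKBR3-labelled ones.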
